A study of Mus musculus with 10 samples.

Results

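The transcripts of 10 members of the BCL2 family of apoptosis regulators were followed by gene symbol through RNA sequencing of mouse embryonic stem cells (ESCs), and all 10 were found among the 21853 protein-coding genes of the deposited tables. They were the anti-apoptotic Bcl2, Bcl2l1 and Mcl1, the effectors Bax and Bak1, and the BH3-only Bcl2l11, Bbc3, Bid, Bad and Pmaip1. Of these, 9 reached 1 TPM in at least 2 libraries and were tested, and Bcl2 did not. TPM is a transcript abundance per length within a library, so levels of different genes can be set side by side.

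The BCL2 family decides whether a cell commits to apoptosis through its mitochondria. Its anti-apoptotic members bind and restrain the pore-forming effectors BAX and BAK, which otherwise open the outer mitochondrial membrane and release cytochrome c. The BH3-only members answer to stress, DNA damage or growth factor loss and act by binding members of the other classes. Pluripotent cells are known for a low threshold to mitochondrial apoptosis.

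The 10 libraries came from 5 lines with 2 libraries each. Naïve ESCs were wild-type J1 cells kept on gelatin with LIF, the MEK inhibitor PD0325901 and the GSK3 inhibitor CHIR99021. GKO was labelled a knockout of Gys1, the muscle isoform of glycogen synthase, AKO a knockout of AMPK, the energy-sensing kinase, and DKO a knockout of both; all 3 were made in J1 cells. GKO cells were picked as single clones after a CRISPR indel, and cells with an AMPK knockout were sorted for a fluorescent reporter and pooled, while the clone behind each library is not stated in the labels. Primed ESCs were wild-type PJ1 cells kept on Matrigel with bFGF and Activin, so line, medium and substrate cannot be told apart in their comparison with naïve ESCs. The comparisons ask what the loss of glycogen synthase does to naïve ESCs, whether AMPK is needed for it, and how primed ESCs differ from naïve ones.

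Marker levels were read against these labels. The 6 naïve markers summed to between 968 and 1150 TPM in the naïve, AKO, DKO and GKO libraries and to 5.02 and 5.97 TPM in primed ESCs, whereas the 6 primed markers reached 387 and 430 TPM in primed ESCs and at most 88 TPM elsewhere. Not every primed marker followed: T was lower in primed ESCs, at 8.97 and 0.79 TPM against 15.7 and 14.5 (log2 change -1.93, adjusted p = 0.0145), and Fgf5 was at 10.7 TPM in 1 primed library and 0.45 TPM in the other. Prkaa1, the catalytic subunit aimed at for the AMPK knockout, had 15.5 and 16.6 TPM with the wild-type genotype, 7.24 and 6.94 after the AMPK knockout, 2.30 and 2.04 in DKO and 12.16 and 11.96 in GKO, and Prkaa2, the other catalytic subunit, lay between 2.39 and 3.29 TPM in these 4 lines. Gys1 mRNA was still present in GKO (9.70 and 9.98 TPM, against 11.5 and 10.8 in the naïve line), and an mRNA level does not check an indel. The 2 primed libraries differed from each other by a median of 0.127 on the log2 scale, against 0.056 to 0.070 in the other lines. Nothing in the labels says that the 2 libraries of a line came from separate cultures, so p-values measure the spread between these libraries only. Depth is unknown because TPM does not keep it. In bulk RNA, fewer cells of a type and less RNA per cell cannot be told apart.

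All classes share the BH3 region, the stretch through which the members bind one another, and its coding bases are printed here because the third class is named for it and the results follow the classes. A search for a leucine followed after 3 residues by a glycine, alanine or serine and then an aspartate found exactly 1 match in the coding sequence of 9 members and 2 matches in that of Pmaip1, whose bases are not shown. Each line gives 42 bases of the GENCODE transcript on GRCm39, with capitals at the leucine codon and at the small residue and aspartate codons. Every segment lies within 1 coding exon.
Bcl2 (chr1:106640302-106640343, minus strand, exon 1): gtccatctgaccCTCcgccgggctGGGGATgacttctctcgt
Bcl2l1 (chr2:152671614-152671655, minus strand, exon 2): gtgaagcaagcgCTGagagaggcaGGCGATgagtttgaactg
Mcl1 (chr3:95566735-95566776, plus strand, exon 1): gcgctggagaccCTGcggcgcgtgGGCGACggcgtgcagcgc
Bax (chr7:45115418-45115459, minus strand, exon 3): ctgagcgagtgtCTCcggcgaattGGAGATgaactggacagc
Bak1 (chr17:27241502-27241543, minus strand, exon 4): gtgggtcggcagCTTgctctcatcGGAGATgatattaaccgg
Bcl2l11 (chr2:127989058-127989099, plus strand, exon 3): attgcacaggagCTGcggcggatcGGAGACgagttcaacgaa
Bbc3 (chr7:16047686-16047727, plus strand, exon 3): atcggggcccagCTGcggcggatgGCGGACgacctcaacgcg
Bid (chr6:120874247-120874288, minus strand, exon 4): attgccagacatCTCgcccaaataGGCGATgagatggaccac
Bad (chr19:6928148-6928189, plus strand, exon 2): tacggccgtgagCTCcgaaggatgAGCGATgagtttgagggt

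In naïve ESCs the family was dominated by an effector and by 1 anti-apoptotic member. Bax stood at 211 and 207 TPM, above 96.7% of tested genes, and Mcl1 at 127 TPM in both libraries, above 94.1%. Bak1, Bid, Bad and Bcl2l1 followed at 48.1, 47.7, 27.6 and 26.2 TPM on average. Bak1 and Bid did not differ beyond the spread of their libraries, which overlapped. Bbc3, which encodes PUMA, was lower at 7.81 and 12.4 TPM, and Bcl2l11, which encodes BIM, and Pmaip1, which encodes NOXA, were lowest of the tested members at 3.57 ± 0.09 and 2.48 ± 0.39 TPM (SD, n = 2). Bcl2 itself was at 0.02 and 0.03 TPM.

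**Figure D1:**
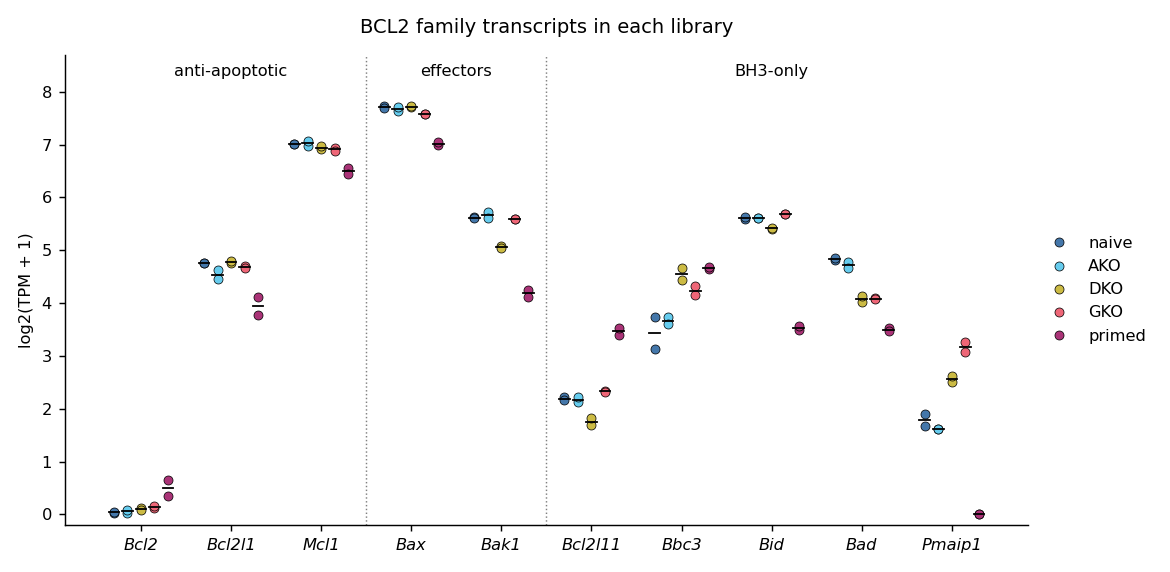
Level of each member in each of the 10 libraries as log2(TPM + 1), with points for libraries, a bar for the mean of the 2 libraries and colours for lines, grouped by class. Bax and Mcl1 lie highest in every line, Bcl2 stays under 1 TPM, and Pmaip1 is listed at 0 in both primed libraries.

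The anti-apoptotic members were nearly level across the 4 lines kept in naïve medium. Mcl1, a short-lived guardian that holds BAK and BIM, gave 127 TPM in each naïve library, 126 and 134 for AKO, 119 and 125 for DKO, and 122 and 117 for GKO. It did not pass the test in either line without Gys1, with log2 changes of -0.09 (SE 0.05) in GKO and -0.06 (SE 0.05) in DKO. Bcl2l1, which encodes BCL-XL, gave 26.2 and 26.1 TPM for the naïve line, 21.0 and 23.6 for AKO, 26.1 and 26.7 for DKO, and 24.9 and 24.5 for GKO. The AKO libraries were the lowest of these, with a log2 change of -0.23 (SE 0.10, adjusted p = 0.507). Bcl2 stayed at or under 0.11 TPM in these 8 libraries.

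In GKO the changes fell on BH3-only members and on 1 effector. Of the 9 tested members, 4 were called at an adjusted p under 0.05, 2 higher and 2 lower, while 51.7% of all 12060 tested genes were called in that comparison (24.7% higher and 27.1% lower), so the count itself is near the background. The median change over the 9 members was -0.02 on the log2 scale, against -0.01 over all tested genes.

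Pmaip1, a BH3-only gene that p53 and the integrated stress response induce and whose product binds MCL1, rose most. Its naïve libraries held 2.75 and 2.20 TPM, and its GKO libraries 8.59 and 7.43 TPM. Both GKO libraries lay above every other library of the series. The mean was 3.23-fold that of naïve ESCs, and the log2 change was 1.38 (SE 0.10, adjusted p = 1.39e-05). Bbc3, a p53 target whose product binds every anti-apoptotic member, rose from 7.81 and 12.4 TPM to 16.7 and 19.1 TPM. Its naïve libraries differed from each other more than those of any other tested member, but all GKO values lay above both, and the log2 change was 0.80 (SE 0.17, adjusted p = 0.00401). Without the naïve replicate 2 the change was 1.10, and without replicate 1 it was 0.50, and it stayed past the threshold in each.

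Bad, whose product couples growth factor and glucose signals to BCL-XL, fell from 27.2 and 28.1 TPM to 16.1 and 15.8 TPM in GKO. The groups did not overlap, and the log2 change was -0.76 (SE 0.06, adjusted p = 2.26e-05), a mean 0.577 times that of naïve ESCs. Bax fell slightly, from 211 and 207 TPM to 190 and 190 TPM (log2 change -0.14, SE 0.04, adjusted p = 0.0255). That call was lost without any 1 of the 4 libraries compared (adjusted p from 0.0750 to 0.138) and under quantile normalization or median-ratio scaling. Bak1 was at 47.2 and 47.4 TPM, Bid at 50.7 and 50.3 TPM and Bcl2l11 at 4.06 and 3.98 TPM in GKO, none of which passed the test. Bid was called higher under quantile normalization (log2 change 0.18, adjusted p = 0.00888).

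**Figure D2:**
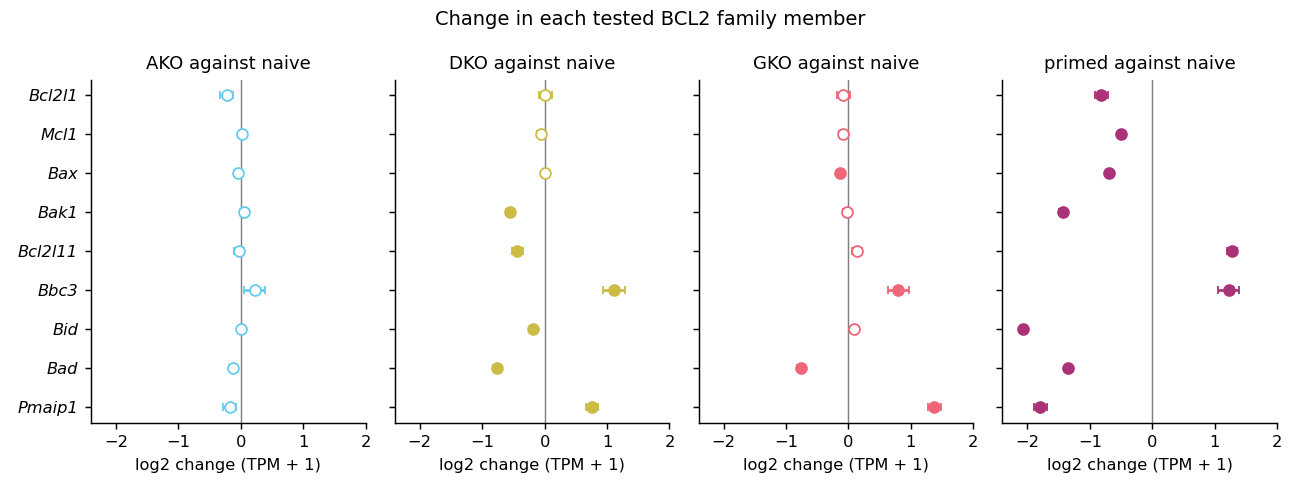
Log2 change of the 9 tested members in AKO, DKO, GKO and primed ESCs against naïve ESCs on the log2(TPM + 1) scale, with the standard error of the limma fit as bars and filled points for an adjusted p under 0.05. No point is filled in AKO, 6 are in DKO, 4 in GKO and 9 in primed ESCs.

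Trophectoderm markers moved with GKO. The summed level of the 4 markers was 30.0 to 31.6 TPM in GKO, 13.3 to 13.6 TPM in DKO, and 8.54 to 9.37 TPM in naïve ESCs and AKO. The sum came from Cdx2 and Tfap2c, while Elf5 and Krt7 were at or near 0 in GKO. The 5 fibroblast markers summed to 7.97 to 9.22 TPM in GKO and to 2.76 to 3.33 TPM in the naïve line. Thy1 (7.14 and 8.48 TPM) and Col1a1 (0.74 and 0.72 TPM) were called higher in GKO. Col1a1 stayed under 1 TPM in GKO and entered the test through the primed libraries only. Col1a2, Col3a1 and Postn were at or under 0.09 TPM in GKO. The 5 primitive endoderm markers summed to 2.02 to 2.07 TPM in GKO and to 0.886 to 1.14 TPM in the naïve line, with Sox17 at or under 0.17 TPM. Gata4 was at 1.39 and 1.31 TPM in GKO and at 0.69 and 0.36 TPM in the naïve line. Only its GKO libraries reached 1 TPM, so it entered the test through GKO and its call there adds no support. The part of these markers in the changes of the members was not tested.

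DKO had more BH3-only members called, and in both directions. The count was 6 of 9, 2 higher and 4 lower, in a comparison that called 46% of all genes (21.7% higher and 24.3% lower). The median over the members was -0.06 on the log2 scale and over all genes -0.01. This comparison uses the same naïve libraries as that of GKO.

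Bbc3 was at 20.8 and 24.2 TPM in DKO, more than in GKO, with a log2 change against naïve ESCs of 1.11 (SE 0.17, adjusted p = 0.000809). Pmaip1 was at 4.65 and 5.11 TPM, above both naïve libraries and below both GKO libraries (log2 change 0.76, SE 0.10, adjusted p = 0.000378). Bad was at 15.2 and 16.5 TPM, overlapping the GKO libraries, and fell by 0.77 on the log2 scale (SE 0.06, adjusted p = 2.86e-05).

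The other 3 calls in DKO were falls in genes that did not pass the test in GKO. Bak1, the effector that resides on the mitochondrion, was at 32.74 and 31.97 TPM, down from 48.7 and 47.5 (log2 change -0.56, SE 0.06, adjusted p = 0.000106). Bcl2l11, a FOXO target that activates both effectors, was at 2.21 and 2.55 TPM against 3.64 and 3.51 TPM (log2 change -0.44, SE 0.08, adjusted p = 0.00273). Bid, which caspase-8 cleaves to link death receptors to mitochondria, was at 41.5 and 41.9 TPM against 47.0 and 48.4 TPM (log2 change -0.19, SE 0.04, adjusted p = 0.00768). The fall of Bid was not called under quantile normalization (adjusted p = 0.0752) or without naïve replicate 2 (adjusted p = 0.0661). Bax was at 208 and 211 TPM, overlapping naïve ESCs.

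AKO differed little. None of the 9 members was called by limma, in a comparison with 0.224% of genes called (0.0663% higher and 0.158% lower, 27 genes in all and 1231 at an unadjusted p under 0.05). None of the 9 had an unadjusted p under 0.05 either, with Bcl2l1 closest at 0.0552. Bbc3 at 12.3 and 11.1 TPM, Bak1 at 52.1 and 47.9 TPM, Bid at 47.9 and 47.8 TPM and Bcl2l11 at 3.34 and 3.66 TPM overlapped naïve ESCs. Bad at 26.3 and 24.3 TPM and Pmaip1 at 2.05 and 2.08 TPM lay below both naïve libraries, with log2 changes of -0.12 (SE 0.06) and -0.18 (SE 0.10) that did not pass the test.

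With these 4 lines, the change after Gys1 loss was compared between cells not targeted for AMPK (GKO minus naïve) and cells labelled AMPK knockouts (DKO minus AKO). The AMPK-targeted lines kept unlike levels of Prkaa1 mRNA, 7.24 and 6.94 TPM in AKO and 2.30 and 2.04 TPM in DKO. Gys1 loss, Prkaa1 level and line therefore cannot be told apart in DKO minus AKO. The difference of the 2 changes was called for 4 of 9 members, 3 higher and 1 lower, beside 25.8% of all genes (12.8% higher and 13.1% lower). The log2 change of Bak1 was -0.02 in cells not targeted for AMPK and -0.61 in the AMPK-targeted cells, a difference of 0.59 (SE 0.08, adjusted p = 0.00131). Bcl2l11 had values of 0.14 and -0.41 in the same order, a difference of 0.55 (SE 0.12, adjusted p = 0.0102). For Bid the changes were 0.08 and -0.19, with a difference of 0.28 (SE 0.06, adjusted p = 0.0128) that was not called without naïve replicate 1 (0.25, adjusted p = 0.0620). In all 3 genes DKO stood alone below the other lines in naïve medium.

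The difference for Bax was small, -0.19 (SE 0.06, adjusted p = 0.0499), and was lost in 12 of 16 alternatives. For Pmaip1, values of 1.38 and 0.94 gave a difference of 0.43 (SE 0.14, adjusted p = 0.0533) that passed in 6 of 16 alternatives, among them the fit of these 4 lines alone (adjusted p = 0.0430) and each fit without 1 primed library. Bcl2l1 passed in that fit of 4 lines too, with a difference of -0.32 (adjusted p = 0.0151, against 0.137 with all 5 lines), and its primed libraries, at 16.4 and 12.7 TPM, carried its largest spread. Bbc3 changed by 0.80 and 0.89, and Bad by -0.76 and -0.64. Their differences did not pass the test (-0.09, SE 0.24, and -0.11, SE 0.09).

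**Figure D3:**
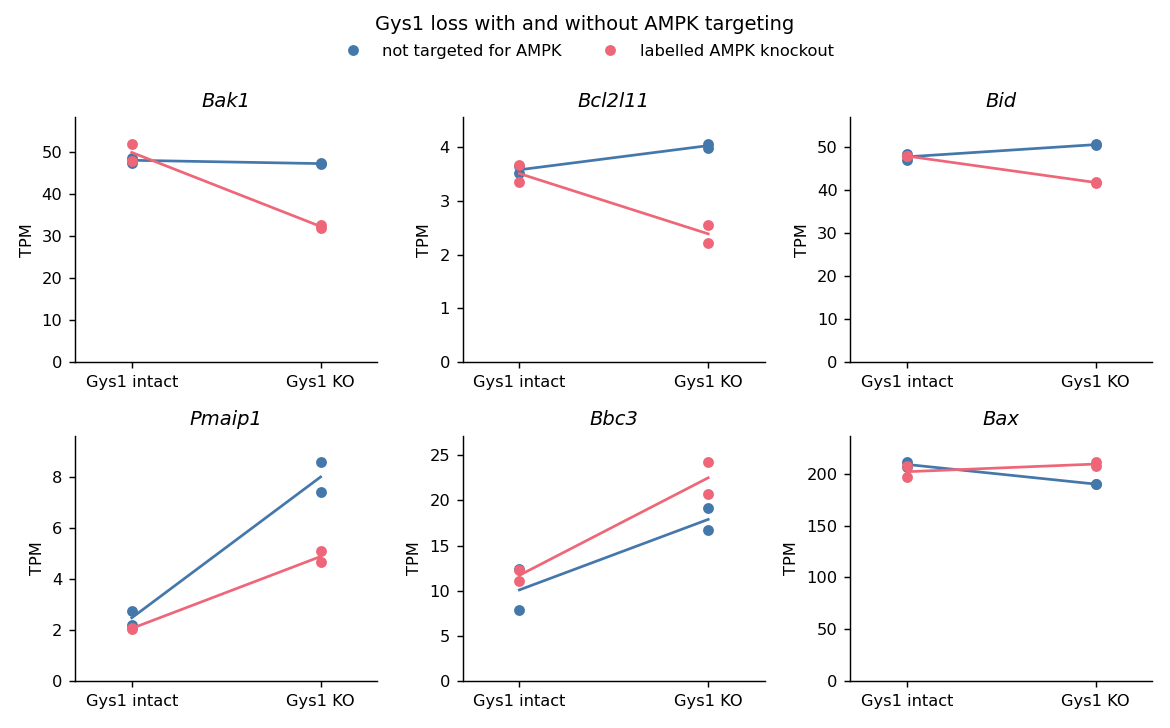
TPM of 6 members in the 4 lines kept in naïve medium, with Gys1 intact or knocked out on the x axis, points for libraries and lines joining the means of cells not targeted for AMPK (naïve to GKO) and labelled AMPK knockouts (AKO to DKO). The lines of Bak1, Bcl2l11 and Bid part at DKO, which lies low, and those of Bbc3 rise side by side.

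Set directly against DKO, GKO had 5 of 9 members called, 4 higher and 1 lower, beside 43.5% of all genes (21.2% higher and 22.4% lower). The members higher in GKO were Pmaip1 (log2 difference 0.61, adjusted p = 0.00137), Bcl2l11 (0.57, adjusted p = 0.000767), Bak1 (0.54, adjusted p = 0.000144) and Bid (0.27, adjusted p = 0.00138). Bax was lower by a log2 difference of -0.14 (adjusted p = 0.0278), a call lost without any naïve, DKO or GKO library (adjusted p from 0.0501 to 0.110). Bbc3 was lower in both GKO libraries than in both DKO libraries, at -0.31 (SE 0.17, adjusted p = 0.164), and passed the test when only GKO and DKO were fitted (adjusted p = 0.0417) or without either naïve library. Bad at 0.01 (SE 0.06) and Mcl1 at -0.03 (SE 0.05) overlapped.

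Primed ESCs differed in every tested member. All 9 were called, 2 higher and 7 lower, beside 80% of all genes (37.4% higher and 42.5% lower). The median over the members was -0.82 on the log2 scale, against -0.06 over all genes, and the summed level of the 10 members was 309 and 303 TPM against 502 and 503 TPM in naïve ESCs. Fibroblast markers were highest in primed ESCs, with a sum of 9.10 to 15.3 TPM. Col1a2 was at 4.18 and 4.84 TPM and Col1a1 at 1.80 and 1.77 TPM there. Both reached 1 TPM in primed ESCs only, so they entered the test through these libraries and their primed calls add no support. Primitive endoderm markers summed to 0.845 and 5.35 TPM in the primed libraries. The part of these markers in the primed changes was not tested.

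On the log2(TPM + 1) scale Bid had the largest fall, from 47.0 and 48.4 TPM to 10.3 and 10.9 TPM (log2 change -2.07, SE 0.04, adjusted p = 6.49e-10). Bak1 fell to 17.97 and 16.39 TPM (log2 change -1.44, SE 0.06) and Bad to 10.47 and 10.07 TPM (-1.35, SE 0.06). Pmaip1 was listed at 0 in both primed libraries and passed the test (adjusted p = 2.49e-07), but no fold is given against a value of 0, and its fitted log2 change ran from -1.79 with a pseudocount of 1 to -4.68 with 0.1. These 4 genes had no primed library near a naïve one.

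Among the abundant members, Bax fell to 126 and 131 TPM (log2 change -0.70, SE 0.04), Mcl1 to 93.3 and 86.5 TPM (-0.50, SE 0.05) and Bcl2l1 to 16.4 and 12.7 TPM (-0.82, SE 0.10). Quantile normalization kept these calls and reduced the fall of Mcl1 to -0.25 and that of Bax to -0.46.

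The 2 rises were in BH3-only members. Bcl2l11 was at 9.53 and 10.6 TPM, 2.82-fold its naïve mean (log2 change 1.27, SE 0.08, adjusted p = 7.26e-07), and Bbc3 at 24.0 and 24.7 TPM, 2.41-fold (log2 change 1.22, SE 0.17, adjusted p = 0.000117). Bbc3 in primed ESCs overlapped its range in DKO, whereas Bcl2l11 stood above all 8 other libraries. Bcl2 was at 0.58 and 0.28 TPM, its highest in the series; with no filter on low values its log2 change was 0.47 (SE 0.08, adjusted p = 0.00188).

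The balance of classes moved less than single members. Anti-apoptotic members held 30.6% and 30.5% of the summed TPM of the 10 members in the naïve line. The shares were 30.1% and 31.4% for AKO, 30.9% and 31.2% for DKO, 30.6% and 29.7% for GKO, and 35.7% and 32.8% for primed ESCs. The GKO range thus overlapped the naïve one, and both primed libraries lay above every other. The ratio of effector to anti-apoptotic TPM was 1.69 and 1.66 for the naïve line, 1.62 and 1.68 for GKO, and 1.31 and 1.48 for primed ESCs. The higher primed share depended on the list. With 15 more family genes in the sum, Bcl2l2, the Bcl2a1 genes and Bcl2l10 were counted as anti-apoptotic too. The anti-apoptotic share was then 21.6% in primed ESCs and 25.1% in naïve ESCs. The added genes include the mitophagy receptors Bnip3 and Bnip3l. Their means were 73.3 and 59.2 TPM in primed ESCs, against 8.31 and 27.4 TPM in naïve ESCs. A wider share without Bnip3 and Bnip3l was not computed.

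Within the BH3-only class the make-up changed. Bid supplied 53.1% and 51.2% of BH3-only TPM in naïve ESCs and 19.0% and 19.4% in primed ESCs. Bbc3 took 8.84% and 13.1% of it in the naïve line and 13.4% and 12.5% in AKO, which overlapped. Its share was 17.3% and 19.8% in GKO, 24.6% and 26.8% in DKO, and 44.2% and 43.9% in primed ESCs. Bcl2l11 supplied 17.5% and 18.8% in primed ESCs and at most 4.22% elsewhere. Pmaip1 reached 8.93% and 7.68% in GKO, its highest share.

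**Figure D4:**
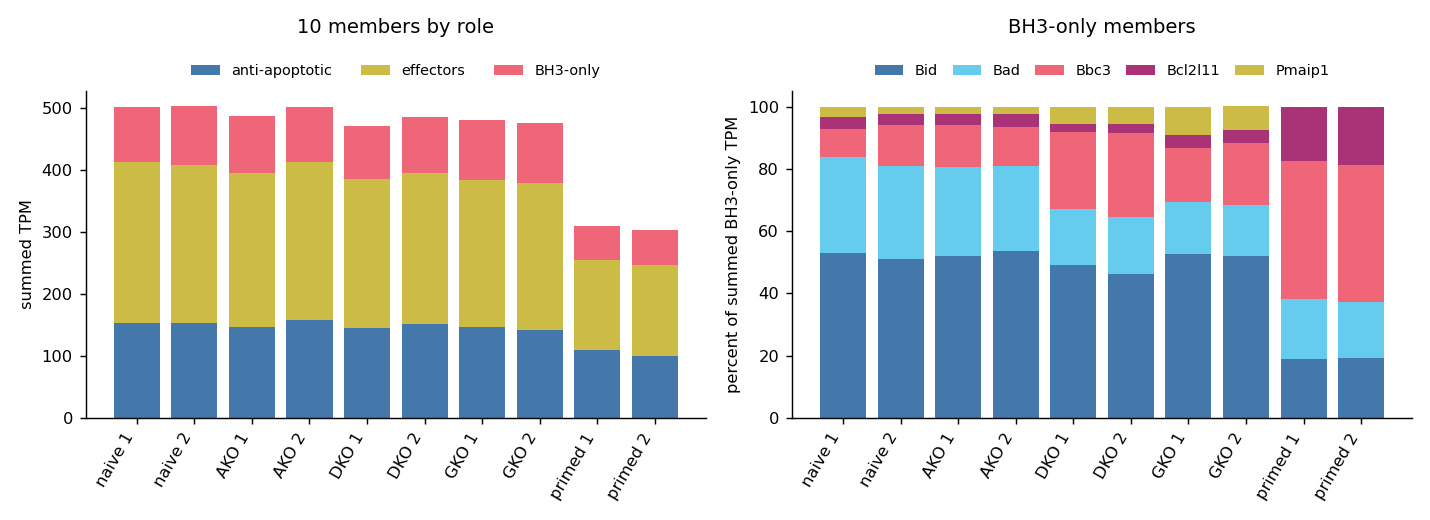
Left, summed TPM of the 10 members in each library stacked by class; right, the percent of summed BH3-only TPM from each of its 5 members. The sums lie between 471 and 503 TPM in naïve medium and at 309 and 303 TPM in primed ESCs, where Bbc3 and Bcl2l11 hold the larger part of the BH3-only TPM.

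The genes around the members were read beside them. Bad lies on chromosome 19, where the median log2 change of the 394 tested genes was -0.40 in GKO, -0.27 in DKO and -0.45 in primed ESCs, against 0, -0.001 and -0.04 over the other chromosomes. Of the 20 tested genes nearest to Bad, 15 were called lower in GKO and 16 in DKO, with medians of -0.57 and -0.41. Bad itself was 0.19 below its neighbours in GKO and 0.36 below them in DKO. In AKO the chromosome stood at -0.004. What part the chromosome has in the fall of Bad was not tested.

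Bid lies on chromosome 6, which stood at a median of -0.39 in primed ESCs, and 15 of the 20 neighbours of Bid were called lower with a median of -0.60, while Bid was a further 1.47 below them. In DKO the neighbours of Bid had a median of 0.26, with 12 called higher and 3 lower. Their median in GKO was 0.20, with 9 higher and 2 lower, and chromosome 6 stood at 0.14 there, against -0.02 elsewhere. For GKO against DKO chromosome 6 stood at 0.15 and the neighbours at -0.01, beside 0.27 for Bid. The difference of responses had 0.12 for the chromosome and -0.01 for the neighbours, beside 0.28 for Bid. What part the chromosome has in the values of Bid was not tested. Bak1, Bcl2l11, Bbc3 and Pmaip1 had neighbours with medians between -0.20 and 0.09 in GKO and DKO. Bax lies on chromosome 7 near the targeted gene: Gys1 ends at base 45106058 and Bax, on the opposite strand, begins 4956 bases further on, with 1 protein-coding gene between them. The targeted exon 9 of Gys1 lies 16899 bases from Bax. The 20 neighbours of Bax had a median log2 change of -0.001 in GKO, with 8 called higher and 6 lower. For GKO against DKO their median was -0.16, beside -0.14 for Bax, and for the difference of responses it was -0.13, beside -0.19 for Bax.

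**Figure D5:**
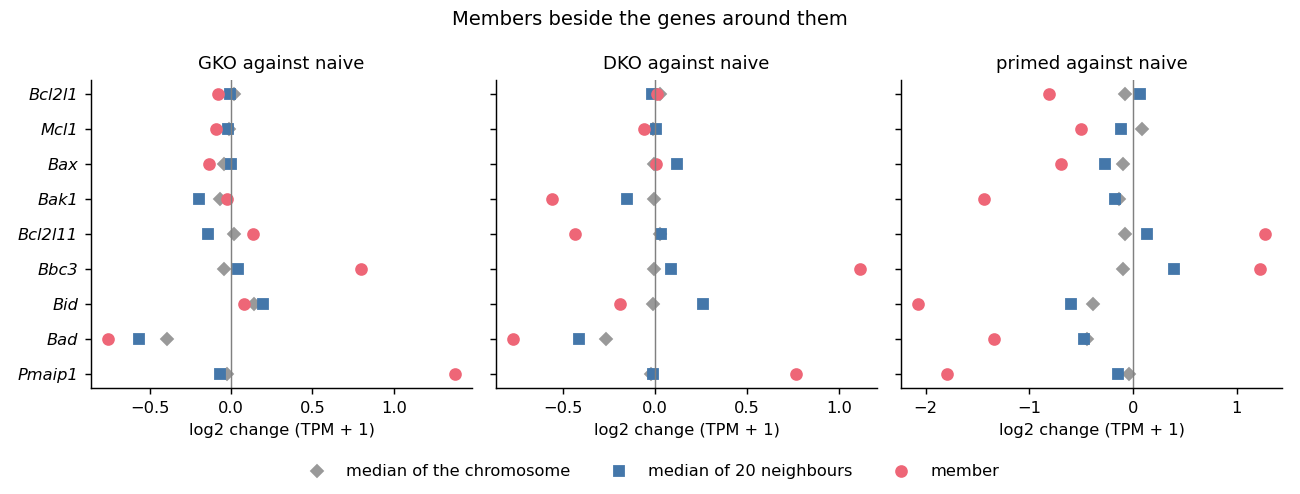
Log2 change of each tested member (circle) beside the median change of its 20 nearest tested genes (square) and of its chromosome (diamond), in GKO, DKO and primed ESCs against naïve ESCs; the x axis differs between panels. For Bad the square and the diamond lie left of 0 in all 3 comparisons, and for Bbc3 and Pmaip1 they lie near 0 in GKO and DKO.

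The promoters of members were searched for motifs of factors known to act on the family, on both strands, in the RefSeq windows of GRCm38.p6 from 250 bases before to 50 bases after a start. The search covered 15 windows of 9 members and left out Pmaip1. The FOXO motif GTAAACA was in 2 of them, against 3.6% of all 32851 windows, and a p53 decamer, the unit that p53 sites repeat, was in 1 of them, against 8.4%. These 3 windows are shown because Bcl2l11, Bbc3 and Bax belong to the members called above; capitals mark the motif with 20 bases to either side, read 5′ to 3′ along the gene.
Bcl2l11, FOXO motif (chr2:128125791-128125837, plus strand, 227 bases before the start): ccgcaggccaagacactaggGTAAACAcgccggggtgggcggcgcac
Bbc3, FOXO motif (chr7:16310074-16310120, plus strand, 167 bases before the start): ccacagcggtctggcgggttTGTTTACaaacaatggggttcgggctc
Bax, p53 decamer (chr7:45467070-45467119, minus strand, 201 bases before the start): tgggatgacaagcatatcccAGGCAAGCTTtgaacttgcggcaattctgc
The MYC-type E-box CACGTG was in 2 windows, of Bax and Bbc3 (7.2% of all), the GC box GGGCGG in 10 (35.7%) and the TATA box TATAAA in none (13.6%). A match describes letters only, and Bcl2l11 and Bbc3 have other starts without the FOXO motif.

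The rest of the pathway was counted on set lists. Of 9 tested other BCL2 family genes, 4 were higher and 1 lower in GKO, where 24.7% and 27.1% of all genes were, among them Bcl2l14 (log2 change 1.18), the BH3-only Bmf (0.72) and Bok, an effector relative (-0.59). In DKO 5 were higher and 2 lower (21.7% and 24.3% of all genes), led by Bcl2l14 (0.69), Bok (-0.62) and Bcl2l13 (-0.49). In primed ESCs 6 were higher and 3 lower (37.4% and 42.5% of all genes), with the mitophagy receptors Bnip3 at 2.97 and Bnip3l at 1.08 and Bcl2l14 at -1.42. Bik, among the 6, reached 1 TPM in primed ESCs only (1.08 TPM in both libraries). It thus entered the test through them, and its primed call adds no support. Bmf rose in GKO and not in DKO, where it was at 0.79 and 0.73 TPM against 2.17 and 2.36 TPM in GKO; the difference of the 2 responses was 0.98 (adjusted p = 0.00402). Between GKO and DKO, 4 were higher and 2 lower (21.2% and 22.4% of all genes), led by Bmf (0.89), Bcl2l13 (0.64) and Bcl2l12 (-0.57).

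Downstream of the mitochondrion, 4 of 11 apoptosome and caspase genes were higher and 4 lower in GKO, beside 51.7% of all genes called. Among them, Casp6 rose (0.59) and the nuclease Endog fell (-0.85). DKO had 3 higher and 3 lower (46% of all genes called), led by Casp2 (-0.66), Apaf1, the apoptosome scaffold (0.63), and Casp6 (0.59). Primed ESCs had 4 higher and 5 lower (80% called), with Casp6 at 1.66 and Endog at -1.05. Between GKO and DKO, 4 were higher and 4 lower (43.5% called), with Endog at -0.71, Casp2 at 0.57 and Cycs, cytochrome c, at 0.57.

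Of 6 inhibitors of apoptosis, 2 were higher and 2 lower in GKO, beside 51.7% of all genes called, with Birc3 at 0.80, Xiap, which blocks caspases directly, at -0.27 and Cflar at 0.26. In DKO, where 46% of all genes were called, only Xiap was called (-0.15), and in primed ESCs, where 80% were, 3 were higher and 3 lower, led by Cflar (1.85), Birc6 (-0.79) and Xiap (-0.67). Between GKO and DKO (43.5% called), 2 were higher and 1 lower, with Birc3 at 1.03, Cflar at 0.27 and Birc5 at -0.16. Cflar reached 1 TPM in primed ESCs only (3.64 and 3.37 TPM), so it was tested because of them and its primed call adds no support. It was at 0.52 and 0.47 TPM in GKO, 0.26 and 0.24 TPM in the naïve line and 0.22 and 0.26 TPM in DKO. Of 6 tested genes of the death receptor arm, which reaches mitochondria through Bid, 2 were higher in GKO, Tnfrsf10b (0.68) and Casp8 (0.38), and 1 in DKO, Tnfrsf10b (1.18), against 24.7% and 21.7% of all genes. Primed ESCs had 3 higher and 1 lower (37.4% and 42.5% of all genes), with Tnfrsf10b at 2.18, Casp8 at 1.96 and Tnfrsf1a at 0.77, beside the fall of Bid. Casp8 reached 1 TPM in primed ESCs only (3.39 and 3.14 TPM), so it entered the test through them and its primed call adds no support. Its GKO libraries were at 0.33 and 0.52 TPM and its naïve ones at 0.06 and 0.13 TPM. Against DKO, GKO had Tnfrsf10b lower (-0.50) and Tnfrsf1a higher (0.27), beside 43.5% of all genes called.

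Of 10 tested upstream regulators, 4 were higher and 2 lower in GKO, beside 51.7% of all genes called: the largest were Foxo3 (0.71), Huwe1, a ligase for MCL1 (0.49), and Foxo1 (-0.42). Trp53, which encodes p53, was called higher both in GKO, at 290 and 292 TPM (0.29), and in DKO, at 295 and 308 TPM (0.34), with naïve libraries at 242 and 235 TPM. DKO had 4 higher and 4 lower (46% of all genes called), led by Mdm2, a p53 target that degrades p53 (0.82), Foxo3 (0.54) and Fbxw7, which marks MCL1 for destruction (0.47). In primed ESCs 3 were higher and 4 lower (80% called), led by Usp9x, which spares MCL1 from destruction (-1.60), Huwe1 (-0.56) and Foxo3 (0.55). GKO and DKO differed in Huwe1 (0.73), Mdm2 (-0.64) and Fbxw7 (-0.35), with 3 higher and 2 lower (43.5% called). In AKO no gene of these 5 lists was called.

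The genes most like each member were those with the smallest root mean square distance over the 4 log2 changes against naïve ESCs. Bad lay nearest to Rbfa (distance 0.06), Bax to Lamp1 (0.02), Mcl1 to Gtf2b (0.02), Bcl2l1 to Gpha2 (0.03) and Bak1 to Tmem266 (0.06). Bcl2l11 lay nearest to Slc16a10 (0.08), Bbc3 to Dhrs4 (0.11), Bid to Txnip (0.09) and Pmaip1 to Abca1 (0.15). No member was among the 3 nearest genes of another. Pmaip1 was the most isolated by this measure, and the trophectoderm marker Cdx2 ranked 3 among its nearest genes (0.25). Cdx2 levels were 6.62 and 7.27 TPM for GKO, 6.73 and 6.86 for DKO, and 2.57 and 2.66 for the naïve line.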

How the data were processed

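RNA was sequenced from 10 libraries of 5 mouse ESC lines, 2 per line. The authors trimmed reads with Trim Galore 0.6.6, aligned them with STAR (2.7.9a in the submitters' processing notes) and estimated expression with RSEM 1.3.3, and they deposited TPM per protein-coding gene. The genome build differs between sources (GRCm38 and the human GRCh38 in the processing notes, GRCm39 in the methods), and the deposited TPM tables hold no coordinates. TPM keeps no depth, so no interval or detection limit was derived; reads shared by similar genes are divided by estimation.

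Groups and replicate numbers came from the sample labels, and 0 other per-sample columns were present. The TPM of the deposited genes summed to between 500162 (primed) and 578952 (AKO) in a library, with GKO at 517712 and 531306. Only quantile normalization and median-ratio scaling rescaled the libraries. The deposited TPM were taken to log2(TPM + 1) for 12060 genes, those that reached 1 TPM in 2 or more libraries; a change on this scale understates that of low genes. limma 3.58.1 in R 4.3.3 fitted 1 mean per line with an intensity trend, and Benjamini-Hochberg adjustment ran over all tested genes of a comparison, with a threshold of 0.05. For 2 libraries against 2, a two-sided exact test could reach 0.333 at the lowest. Sequences and positions came from GENCODE vM39 on GRCm39 and, for promoters, from RefSeq on GRCm38.p6; windows were read with Python.

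The members and lists were chosen with earlier results of these data known. All members are described. Of each other list, up to 3 called genes with the largest change are named, and Trp53, Bik, Bmf in the test of 2 responses, Cdx2, Tfap2c, Elf5, Krt7, Thy1, the collagen genes, Postn, Gata4, Sox17, T and Fgf5 were added after their values were seen. Of the upstream list, 10 of 11 symbols matched. The values of 1 gene named by this rule are not reported here. Alternatives were a pseudocount of 0.1, no filter, quantile normalization, median-ratio scaling, a replicate block, only the lines compared, a wider family list and each library left out.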

Additional observations from a re-analysis of the deposited data

Results flagged for a closer look

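The change after Gys1 loss differed between cells not targeted for AMPK and cells labelled AMPK knockouts, by the interaction term of the limma fit, in 4 of 9 members, beside 25.8% of all genes. The log2 difference was 0.588 for Bak1 (adjusted p = 0.00131), 0.548 for Bcl2l11 (adjusted p = 0.0102), 0.275 for Bid (adjusted p = 0.0128) and -0.188 for Bax (adjusted p = 0.0499). The call for Bid was lost in 1 of 16 alternatives and that for Bax in 12 of 16. AKO and DKO also differed in Prkaa1 mRNA, so Gys1 loss, Prkaa1 level and line cannot be told apart between them. Lines of 2 libraries allow no test of a single library standing apart.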

How the results depend on the processing

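Over 16 alternative fits, called members numbered 3 to 4 in GKO, 5 to 6 in DKO, 0 in AKO, 9 to 10 in primed ESCs, 4 to 6 between GKO and DKO and 3 to 6 for the difference of responses. The falls of Bad and the rises of Bbc3 and Pmaip1 in GKO and DKO passed in all 16. Replicate numbers did not pair the samples (correlations of deviations from -0.128 to 0.078); with the replicate block the counts were 4, 6, 0, 9, 5 and 3, and the only member call it changed was that of the Bax difference (adjusted p = 0.0697). The wider family list, which holds Bnip3 and Bnip3l, moved the anti-apoptotic share to 25.1% (naïve), 25.3% (AKO), 25.8% (DKO), 24.1% (GKO) and 21.6% (primed). Signs reversed only for log2 changes that were not called: with quantile normalization Mcl1 in GKO (0.021), Bak1 in GKO (0.070) and Mcl1 in DKO (0.057), and with median-ratio scaling Bak1 in GKO (0.003) and the Mcl1 difference of responses (0.009). With 1 library left out they ranged in DKO from -0.004 to 0.028 (Bcl2l1) and -0.012 to 0.018 (Bax), in AKO from -0.021 to 0.069 (Mcl1), -0.006 to 0.112 (Bak1), -0.074 to 0.028 (Bcl2l11), -0.075 to 0.525 (Bbc3) and -0.017 to 0.027 (Bid), between GKO and DKO from -0.044 to 0.068 (Bad), and for the difference of responses from -0.054 to 0.036 (Mcl1) and -0.389 to 0.211 (Bbc3). Over all genes, the 27 calls in AKO became 13 with a pseudocount of 0.1, 8 with the replicate block, 0 with only the lines compared, and 1 to 126 with 1 library left out, where both fits without a primed library gave the high counts (120 and 126). The 3116 calls for the difference of responses became 1944 without naïve replicate 1, 1993 without naïve replicate 2, 2062 without DKO replicate 2, and 2071 without AKO replicate 1 or GKO replicate 1. The causes were not tested. TPM without depth sets no limit of detection for Bcl2 or for Pmaip1 in primed ESCs.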
